A study of Saccharomyces cerevisiae with 16 samples.

Results

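In budding yeast, Saccharomyces cerevisiae, 200 genes were chosen because their 5′ leaders held the most footprints of small ribosomal subunits (40S) for each footprint at their start codons. Leader and start-codon counts were summed over 3 libraries of unselected 40S, and genes with at least 60 leader counts and 30 start-codon counts were ranked by the ratio of the sums. Of 5818 genes in the count table, 1008 passed these minimums. The 200 with the highest ratio are described here, and the other 808 serve as the comparison. The unselected leader and start-codon counts made the choice, so they are given as a description and support nothing. Coding-region counts, and the 3 libraries of 40S pulled down through an initiation factor, were not used in the choice.

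A 40S subunit is recruited near the cap of an mRNA with a set of initiation factors and moves along the 5′ leader until its initiator tRNA pairs with a start codon, where the large subunit joins to form an 80S ribosome. Footprints in the leader therefore come from subunits that are loading, scanning or held at an upstream reading frame, and footprints at the start codon come from subunits that have reached it. eIF3 is a scaffold of this complex, and eIF2 brings the initiator tRNA. GCN4, the activator of amino acid biosynthesis genes, is the textbook case of a leader whose upstream reading frames hold back subunits before the main start codon.

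The footprints come from translation complex profiling, in which formaldehyde-fixed cells are digested with RNase I and the protected RNA of separated 40S complexes is sequenced. All 6 libraries came from yeast in rich medium at 30 °C, fixed with 0.8% formaldehyde, and every strain carried a FLAG tag on one initiation factor. Number 1-1 was the eIF3a/TIF32-FLAG strain SY182, number 1-2 the eIF3c/NIP1-FLAG strain H25 and number 1-3 the eIF2beta/SUI3-FLAG strain SY194. Each gave 1 unselected 40S library and 1 library of 40S bound by its tagged factor, so strain and factor cannot be told apart and no factor has a replicate. The count table heads the column of number 1-3 eIF2alpha, while the labels name eIF2beta, and the labels were followed. No control library from an untagged strain was used here. The amount of each mRNA enters every count, so 40S per mRNA and the amount of mRNA cannot be told apart in a count alone. A ratio of 2 areas of one gene in one library is less exposed to this, because both areas usually lie on the same transcript. Values below are listed in the order unselected 1-1, 1-2 and 1-3, then eIF3a-bound, eIF3c-bound and eIF2β-bound. Counts are raw, and library totals ran from 1595793 to 2800652 in unselected and from 3403297 to 4486412 in factor-bound 40S, so only ratios can be read across libraries directly.

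The 200 leaders outweighed their start codons by a median of 3.14 to 1 in the summed unselected libraries, where the other 808 genes had a median of 0.294. The ratio ran from 1.84 to 101 among the 200, and 14 exceeded 10. Both terms of the ratio differed. Their median leader held 320 counts against 184 in the other genes, and their median start codon held 74 counts against 674.5. At the edge of the choice, YER079W, ERG11 and CTR1 were just inside with ratios of 1.85, 1.84 and 1.84. IDH2, MRPL7 and UBP2 were just outside with 1.83, 1.83 and 1.82. The boundary therefore separates genes that hardly differ.

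**Figure D1:**
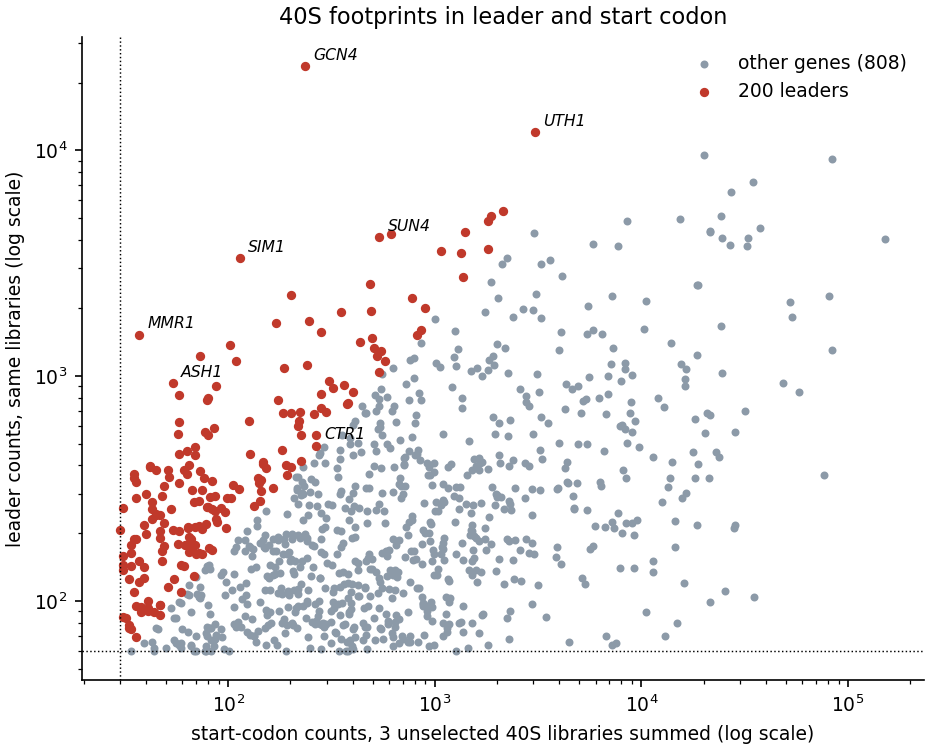
Each point is a gene, with start-codon counts on the x axis and leader counts on the y axis, both summed over the 3 unselected 40S libraries on log scales, and dotted lines mark the minimums of 30 and 60 counts. The 200 chosen leaders (red) lie above a ratio of 1.83 by construction, and the 808 other genes (grey) lie to the right of them with up to 151792 start-codon counts.

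GCN4 stood first, and its leader held far more 40S than any other. Its leader counts were 9267, 5834 and 8597 in unselected and 22949, 39226 and 52068 in factor-bound 40S. Its start-codon counts were 84, 39 and 112, then 145, 165 and 376. The summed ratio was 101 in unselected and 167 in factor-bound 40S, the highest in both. Second was MMR1, which ties mitochondria to the myosin that carries them into the bud. MMR1 leader counts were 587, 436 and 501, then 1666, 3283 and 3056, over only 10, 14 and 13, then 24, 20 and 15 start-codon counts. Its ratio was 41.2 in unselected and 136 in factor-bound 40S, and every library had a leader count many times its start count.

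ASH1, a repressor that acts in daughter cells and whose mRNA is carried to the bud tip, had 367, 245 and 317, then 968, 1596 and 1896 leader counts. Its start-codon counts were 19, 20 and 15, then 25, 48 and 36, and its ratio was 17.2 in unselected and 40.9 in factor-bound 40S. KRE6, needed for a glucan of the cell wall, had ratios of 16.8 and 23.3, and AUR1, the synthase of inositol phosphorylceramide, had 14.1 and 21.3. CLG1, a cyclin-like partner of the kinase Pho85, went from 13.5 in unselected to 63.0 in factor-bound 40S. PTC2, a protein phosphatase, had 11.3 and 16.4, and PAM1 had 10.8 and 15.6. PPH21, a catalytic subunit of protein phosphatase 2A, had 10.7 and 24.3. Its near copy PPH22 was also among the 200, with 3.42 and 4.6. The sources used here do not say how reads shared by such copies were counted, so the split between them is uncertain, as it is for other paralogs and for overlapping genes.

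SIM1, which belongs to the SUN family of cell wall proteins, ranked 3 in unselected 40S but 16 in factor-bound 40S. Its leader counts were 1210, 954 and 1151, then 3334, 6396 and 8027. Its start-codon counts were 27, 73 and 14, then 55, 752 and 39, so both libraries of the eIF3c-tagged strain stood above the others. Its ratio in single libraries consequently spread from 13.0 to 79.4 in unselected and from 8.50 to 203 in factor-bound 40S. The ratio of SIM1 summed over libraries depends on that one strain, and the reason was not tested.

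In the factor-bound libraries, which the choice did not use, the chosen leaders again held more 40S than their start codons. The median of their summed ratios was 5.40, against 0.429 for the other 808 genes, and all 200 lay above that comparison median. Of the 200, 173 (86.5%) were also among the 200 highest in factor-bound 40S, and 27 other genes filled the remaining places. The leader count exceeded the start-codon count for 197, 198 and 197 of the 200 in the single factor-bound libraries. It did so for 226, 198 and 273 of the other 808 genes. It did so in all 6 libraries for 197 of the chosen genes, but 3 of these libraries made the choice, and there all 200 had this excess. Across the 200 the ratios in the unselected and factor-bound sums had a Spearman correlation of 0.82, and across all 1008 of 0.97. The unselected and factor-bound libraries share a strain where the labels give the same number. Nothing states that they came from separate cultures, so the correlations are a description.

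**Figure D2:**
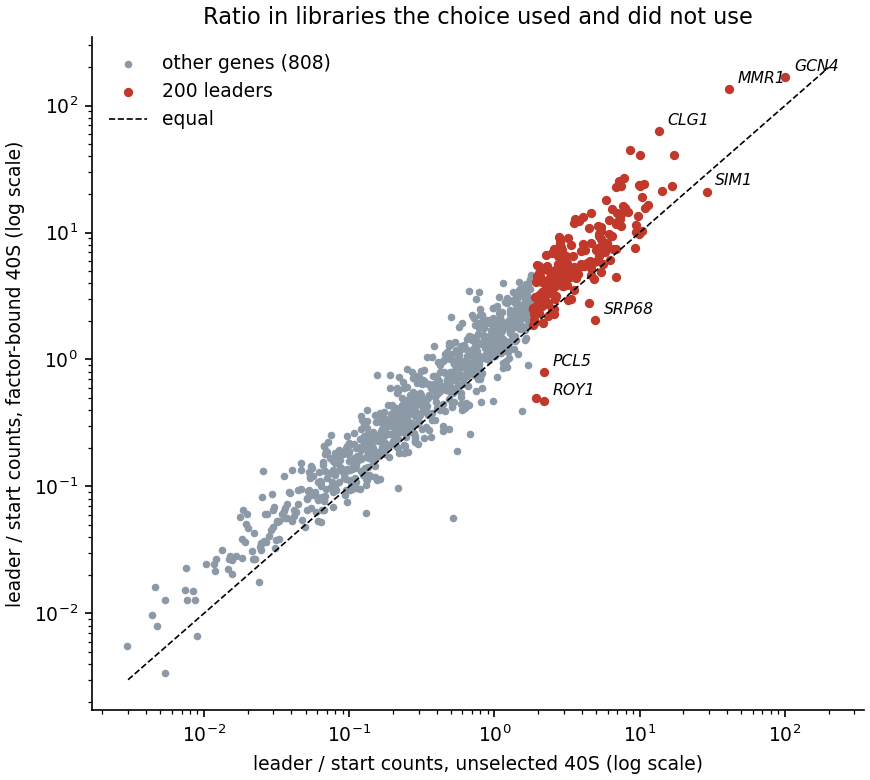
Each point is a gene, with leader counts over start-codon counts summed over the 3 unselected 40S libraries on the x axis and over the 3 factor-bound libraries on the y axis, both on log scales, and the dashed line marks equal ratios. The 200 leaders (red) have a median of 5.40 on the y axis, and 3 of them, ROY1, MRX7 and PCL5, fall below 1.

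A choice made on only part of the unselected libraries gave mostly the same genes, again with a leader excess in the library left out. That library is of the same kind as those used, and nothing states separate cultures. The values describe how stable the choice was and support nothing further. With the minimums lowered to 40 and 20 counts for 2 libraries, the 200 leaders shared 175, 185 and 185 genes with the full choice when 1-1, 1-2 or 1-3 was left out. Their median ratio in the library not used was 2.70, 3.87 and 3.75, and that of the other genes was 0.268, 0.347 and 0.300. In that library the leader held more counts than the start codon for 197, 200 and 198 of the 200.

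Summed over the 200 genes, leaders held 78.9%, 80.4% and 81.3% of leader and start-codon counts in the unselected libraries (80.2% ± 1.22, SD, n = 3). They held 85.3%, 85.4% and 89.2% in the 3 factor-bound libraries (86.7% ± 2.24, SD, n = 3). The largest 95% Wilson interval, for unselected 1-2, ran from 80.1% to 80.7%, and covers counting error only. In the other 808 genes the shares were 10.7%, 11.7% and 12.1%, then 18.5%, 16.6% and 22.3%. Without GCN4 the chosen leaders held 77.8% ± 1.18 and 85.0% ± 2.43 (SD, n = 3 each), a drop larger than the SD in unselected and smaller than the SD in factor-bound 40S. The 200 genes contributed 27.8% to 30.7% of all leader counts of an unselected library and 28.5% to 34.3% of a factor-bound one. They contributed 1.17% to 1.34% and 1.51% to 1.74% of all start-codon counts.

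The median ratio per library was 2.92, 3.51 and 3.80 in unselected and 4.54, 4.68 and 7.0 in factor-bound 40S, with 0.5 added to each count. Other genes had 0.276, 0.344 and 0.300, then 0.442, 0.352 and 0.524. Medians were higher in every factor-bound than in every unselected library in both sets of genes. The median log2 change of the summed ratio was 0.67 among the 200, with 180 higher and 20 lower, and 0.60 among the other 808, with 716 higher and 92 lower. Every factor-bound library lay above every unselected one for 88 of the 200 (44.0%), against 43.4% of all 1008 genes. Every factor-bound library lay below every unselected one for 4, against 1.49% of the 1008. Because the unselected ratios made the choice, nothing is read from these counts, and the share of the 200 is close to that background in any case. The eIF2β-bound library had the highest of the 3 factor-bound ratios for 157 of the 200 (78.5%) and for 529 of the other 808 genes (65.5%). With 1 library per factor this has no test.

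**Figure D3:**
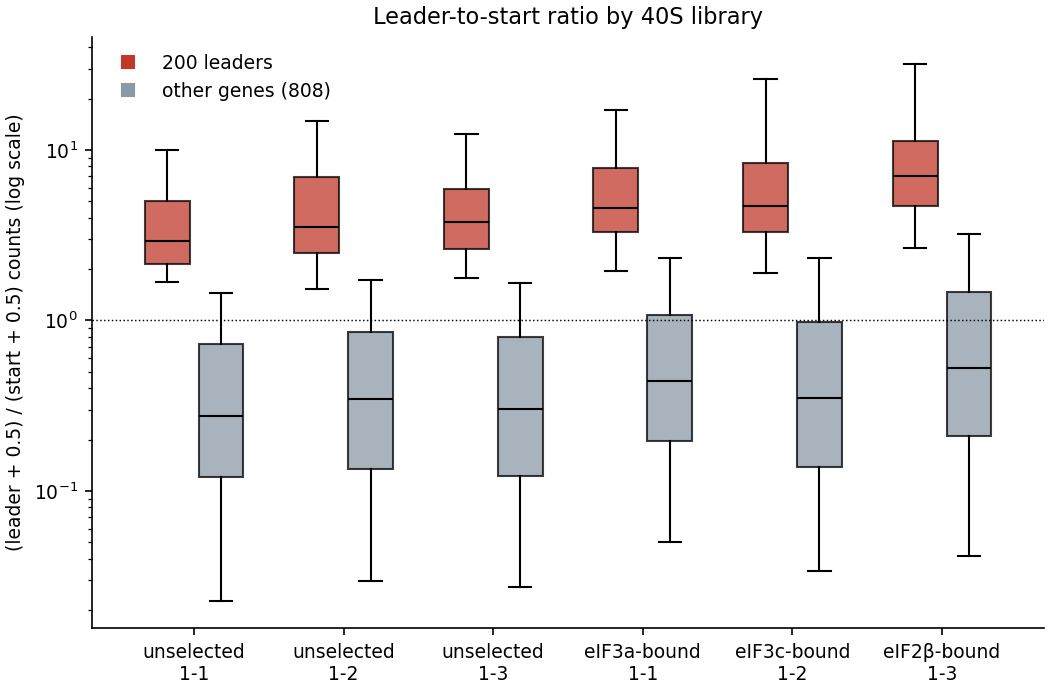
Boxes give the median and quartiles, and whiskers the 5th and 95th percentiles, of leader over start-codon counts per gene (0.5 added to each) in each of the 6 libraries of 40S, on a log scale, for the 200 chosen leaders (red) and the 808 other genes (grey). Medians of the chosen leaders run from 2.92 to 7.0 and those of the other genes from 0.276 to 0.524, and the dotted line marks equal counts.

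By function, cytosolic ribosomal protein genes and genes of glycolysis were missing among the 200, which made up 19.8% of the genes past the minimums, and lists of regulators held larger shares. The lists are described by counts and medians, with no test. They are not complete, and shares and medians cover only list genes past the minimums. Few regulators passed: 10 of 66 transcription factors, 7 of 43 protein kinases, 8 of 34 cell cycle regulators and 9 of 35 RNA-binding regulators. A gene with few counts passes the leader minimum mainly when its leader is heavy, which is also what the choice ranked. The minimums can therefore raise the share chosen in thinly covered lists. Shares of such lists cannot be set directly against 19.8%. None of 36 small-subunit ribosomal protein genes, 40 large-subunit ribosomal protein genes, 21 genes of glycolysis and fermentation or 8 elongation and termination factors was chosen. Their median ratios in factor-bound 40S were 0.0802, 0.0886, 0.0563 and 0.121, below the median of 0.722 over all 1008 genes. Of 18 initiation factor genes only TIF4632, a form of the scaffold eIF4G, was chosen, with ratios of 1.92 and 2.64. Its leader counts were 151, 65 and 101, then 435, 467 and 781, over 82, 24 and 59, then 153, 231 and 254 start-codon counts. Of 34 amino acid biosynthesis genes only ILV2, the acetolactate synthase of branched-chain amino acids, was chosen.

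Transcription factors of nutrient and stress response contributed 6 of the 10 that passed the minimums, and that list had a median ratio of 4.77 in factor-bound 40S. Beside GCN4 and ASH1 these were HAP4, PHD1, CST6 and YAP1. HAP4, the activating subunit for respiratory genes, had 161, 122 and 100, then 431, 813 and 678 leader counts. Its start-codon counts were nearly level, at 18, 15 and 12, then 18, 12 and 13, and its ratio was 8.51 in unselected and 44.7 in factor-bound 40S, which ranked 4 there. PHD1, an activator of filamentous growth, had ratios of 7.30 and 12.8. YAP1, the regulator of the oxidative stress response, had 2.15 and 2.88. A list of mRNAs with reported upstream reading frames held 24 genes, of which only 6 passed the minimums. The limit given above for thinly covered lists holds for its share too. Of those 6, 4 were chosen: GCN4, HAP4, YAP1 and RPC11, a subunit of RNA polymerase III. That list had a median ratio of 3.24 in factor-bound 40S.

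Protein kinases of nutrient and stress signalling contributed 4 of 7, namely SNF1, YCK3, BCY1 and MCK1, with a list median of 4.82 in factor-bound 40S. SNF1, the protein kinase of glucose derepression, had 123, 65 and 100, then 400, 493 and 598 leader counts over 61, 10 and 28, then 51, 68 and 84 start-codon counts. Its ratio was 2.91 in unselected and 7.34 in factor-bound 40S. BCY1, the regulatory subunit that keeps protein kinase A inactive, had 2.76 and 5.24. Cell cycle regulators contributed 4 of 8: the B-type cyclin CLB3, the activator CDC20 of the anaphase-promoting complex, the RNA-binding WHI4 and PCL5, a cyclin of the kinase Pho85. RNA-binding regulators contributed 4 of 9, WHI4, SLF1, PBP1 and SBP1, with a list median of 1.85. SBP1, a repressor of translation, had one of the larger leader counts, with 1497, 1020 and 1138, then 4618, 7899 and 9526. Its start codon was also well filled, with 773, 580 and 459, then 961, 1912 and 1174 counts.

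The list of cell wall and secreted proteins contributed 6 of 27, close to the share of all genes, with a list median of 0.730 in factor-bound 40S. KRE6 and SLG1 were also chosen but are not on this list, so its share is not that of all cell wall genes. The 6 on the list were SIM1, SUN4 and UTH1, which belong to the SUN family, the daughter-cell glucanase DSE2, the chitinase CTS1 and the aspartyl protease YPS1. UTH1 had the most leader counts after GCN4, at 4817, 3423 and 3800, then 11624, 21345 and 23087. It also had 1221, 868 and 955, then 1812, 4273 and 3922 start-codon counts, so that its ratio was only 3.96 and 5.60. SUN4 had 1582, 971 and 1581, then 3681, 6251 and 10312 leader counts and ratios of 7.66 and 16.3. Plasma membrane transporters contributed 5 of 17: the permeases HIP1 for histidine, TAT2 for tryptophan and tyrosine and MEP3 for ammonium, the copper transporter CTR1 and the drug exporter YOR1. Nuclear genes of respiration contributed 4 of 32, ATP1, CYC7, QCR6 and NDE1, with a list median of 0.392. The list drawn up for mitochondrial ribosomal proteins contributed 2 of 8, MRP1 and MRX7, with a list median of 1.76. It is not a full account of that class. RML2 and NAM9 were chosen but are not on it, and whether MRX7 belongs to the class was not checked.

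Other genes with many leader counts were HRP1, an RNA-binding protein of mRNA 3′ end formation, YDJ1, a partner of Hsp70 chaperones, MRH1 and YNL190W. HRP1 had 4671, 7568 and 8623 factor-bound leader counts and a ratio of 12.2. YDJ1 had 6107, 7490 and 11506 and a ratio of 4.79. ATP1, the alpha subunit of the mitochondrial ATP synthase, had 5857, 10341 and 9719 and a ratio of 5.61. MRH1 and YNL190W had ratios of 3.93 and 5.33. Among the highest ratios in factor-bound 40S were also RSP5, the essential ubiquitin ligase of membrane proteins, at 40.5, VPH1, a subunit of the vacuolar proton pump, at 25.3, and SLG1, a sensor of cell wall stress, at 23.8.

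At the low end in factor-bound 40S, ROY1, MRX7 and PCL5 lost their leader excess, with ratios of 0.472, 0.5 and 0.790 and ranks of 584, 574 and 481. ROY1 leader counts were 46, 14 and 15, then 20, 14 and 8, and its start-codon counts were 23, 4 and 7, then 28, 35 and 26. PCL5, which promotes the breakdown of the Gcn4 protein, had 40, 27 and 23, then 8, 23 and 18 leader counts. MRX7 had 26, 17 and 26, then 9, 10 and 17. Summed over 3 libraries, the raw leader counts of all 3 genes were lower in factor-bound than in unselected 40S, although the factor-bound libraries were deeper. SRP68, a subunit of the signal recognition particle, had a ratio of 4.95 in unselected and 2.05 in factor-bound 40S. Its start-codon counts were 27, 0 and 13, then 112, 96 and 113, so the unselected ratio includes a library with 0 start counts. The remaining low ratios were those of YER079W (1.88), CKB2 (1.94), TEM1 (1.97), ORC2 (2.05), VTC2 (2.2) and BUR6 (2.30).

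When each area was tested across all genes with edgeR's quasi-likelihood test, 3 of the 200 leaders were called lower in factor-bound 40S and 0 higher, against 1.67% lower and 0% higher of the 2036 leaders tested. All 200 passed the filter on low counts. The 3 were MRX7 (log2 fold -2.96 ± 0.34, SE, adjusted p = 0.00134), PCL5 (-2.87 ± 0.37, adjusted p = 0.00369) and ROY1 (-2.68 ± 0.50, adjusted p = 0.0193). The call of ROY1 was lost without unselected 1-1 (edgeR adjusted p = 0.233), unselected 1-2 (0.0669), the eIF3c-bound (0.128) or the eIF2β-bound library (0.0828). At an unadjusted p under 0.05 there were 23 of the 200 (11.5%), against 10.7% of all leaders tested. DESeq2 called 0 of the 200 higher and 3 lower, against 0.0491% and 1.87% of all. Without the filter on low counts edgeR called 1 of the 200 higher, against 0.063% of all. With the library number as a block, edgeR called 15 higher (7.5%) and 4 lower (2%), against 1.57% and 5.16% of all. The choice used the unselected leader counts, so nothing is read from these calls. The median log2 fold was 0.26 for the 200, with 173 above 0, and -0.01 over all leaders tested.

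Start-codon counts were called higher in factor-bound 40S for 7 of the 200 (3.5%) and lower for 0, against 1.34% higher and 5.12% lower of the 3868 start codons tested. Of the 807 tested among the other genes past the minimums, 3.59% were called higher, close to the share of the 200, and 3.84% lower. All 200 passed the filter. The 7 were FOL2, CSR1, STE4, ARF3, TCB1, DFG5 and YOR1, and they were named after their values were seen. YOR1 had the largest log2 fold, 2.11 ± 0.41 (SE, edgeR adjusted p = 0.0197), with start-codon counts of 10, 12 and 9, then 53, 151 and 133, and its groups did not overlap. Without a single library the count fell to 0 (unselected 1-1 or eIF3c-bound), 1 (unselected 1-2 or eIF3a-bound) or 2 (unselected 1-3 or eIF2β-bound). Over all start codons, 0.0247%, 0.049% and 0.344% were called higher without unselected 1-1, 1-2 and 1-3, and 0.182%, 0.0258% and 0.461% without the eIF3a-bound, the eIF3c-bound and the eIF2β-bound library. DESeq2 called 11 of the 200 higher (5.5%), against 2.04% of all. With the library number as a block it was 61 higher (30.5%) and 8 lower (4%), against 12.6% and 16.2% of all start codons. The choice favoured low start-codon counts in the unselected libraries, so nothing is read from these calls either.

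Coding regions, which the choice did not use, gave 15 of 194 tested genes higher (7.73%) and 27 lower (13.9%) in factor-bound 40S relative to the median gene. The background over all 4797 coding regions tested was 14.4% higher and 11.8% lower, and the median log2 fold was -0.03 among the 194 and 0.00 over all. Of the 200, DER1, SCO2, YBL029C-A, YER079W, SNN1 and YLR297W did not pass the filter on low counts. The coding regions of the 200 were thinly filled in general. Their median in summed unselected 40S was 98.9 counts per kilobase, against 436.5 in the other 808 genes. In these same libraries the choice favoured genes with few start-codon counts, and the amount of mRNA enters both areas. The low coding-region counts are therefore not independent of the choice. With the library number as a block, 28 (14.4%) were called higher and 36 (18.6%) lower by edgeR, against 19.9% and 17.2% of all coding regions.

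These folds are relative to the other coding regions of the same libraries, and coding regions as a whole held less of the factor-bound libraries. In the 200 genes, 17.0%, 18.2% and 17.8% of the counts over all 5 areas lay in the coding region in unselected 40S. In factor-bound 40S these shares were 5.54%, 5.06% and 2.96%. The groups did not overlap. In the other 808 genes the share was also lower, between 9.30% and 15.1% against between 23.4% and 28.2%. When libraries were scaled by the counts of all areas, the median coding region shifted by -0.82 on the log2 scale, the median leader by 1.27 and the median start codon by 0.52. Under that scaling 4 of the 194 coding regions (2.06%) were called higher and 112 (57.7%) lower, against 3.67% and 50.6% of all coding regions. Of the 200 leaders 197 (98.5%) were called higher and 3 (1.5%) lower, against 73.5% and 1.13% of all leaders. Of the 200 start codons 89 (44.5%) were called higher and 0 lower, against 23.1% and 2.43% of all start codons. Calls of that direction were thus frequent over the whole table.

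The rises in coding-region counts were led by a mitochondrial protein and several regulators. MRX7, with the shortest coding region of the 200 at 261 nt, rose from 11, 9 and 7 to 45, 35 and 40 counts (log2 fold 2.25 ± 0.34, SE, edgeR adjusted p = 0.000874). PUT3, the activator of proline utilisation genes, rose from 60, 35 and 69 to 166, 170 and 201 (1.83 ± 0.26, adjusted p = 0.000654). PPQ1, a protein phosphatase, rose from 242, 141 and 179 to 387, 604 and 667 (1.68 ± 0.23, adjusted p = 0.000567). UBP1, a ubiquitin protease, rose from 188, 99 and 137 to 346, 410 and 437 (1.63 ± 0.21, adjusted p = 0.000427). In each of these 4 genes every factor-bound library lay above every unselected one, and all 4 were also called higher when libraries were scaled by all areas. The next largest were SED5, a SNARE of the Golgi, with 1.43 ± 0.25 and TDA10 with 1.29 ± 0.28. ECL1 had 1.16 ± 0.22, and MSS4, the kinase that makes the plasma membrane lipid PIP2, had 1.11 ± 0.22. These 8 calls held without any single library. GAG1 (1.06) was not called without unselected 1-1 (adjusted p = 0.0853) or the eIF2β-bound library (0.0627). RFM1 (1.05) was not called without unselected 1-2 (adjusted p = 0.0755), unselected 1-3 (0.0682), the eIF3a-bound (0.0560) or the eIF2β-bound library (0.0602). WHI4 was among the 15 at 0.65, and its fold had the opposite sign, -0.19, under scaling by all areas.

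The falls were led by a cyclin, a transporter and metabolic enzymes. CLB3 fell from 50, 25 and 44 to 12, 21 and 11 counts (log2 fold -1.34 ± 0.29, SE, edgeR adjusted p = 0.00547). YOR1 fell from 60, 52 and 62 to 21, 29 and 18 (-1.30 ± 0.27, adjusted p = 0.00409). ILV2 fell from 321, 182 and 324 to 97, 123 and 111 (-1.21 ± 0.22, adjusted p = 0.00221). In all 3 the raw counts were lower in every factor-bound than in every unselected library, although the factor-bound libraries were deeper. FRA1, a regulator of the iron response, had -1.18 ± 0.28. NDE1, the mitochondrial dehydrogenase of cytosolic NADH, had -1.17 ± 0.23, and RSP5 had -1.13 ± 0.23, from 105, 67 and 92 to 38, 38 and 36 counts. These 6 calls held without any single library. FLC1 (-1.07) was not called without unselected 1-1 (adjusted p = 0.0596), and HIP1 (-1.07) was not called without unselected 1-3 (0.0521). CTR1 (-1.04) was not called without unselected 1-1 (adjusted p = 0.0709) or unselected 1-3 (0.0733). KIN1 (-1.04) was not called without unselected 1-2 (adjusted p = 0.0647), unselected 1-3 (0.0657), the eIF3a-bound (0.0680) or the eIF2β-bound library (0.0625). The count of 27 falls itself was 16 (8.16% of those tested) without unselected 1-2 and 13 (6.67%) without unselected 1-3, where 8.18% and 7.13% of all coding regions were called lower. Without unselected 1-1 it was 20, against 7.7% of all. It was 18, 30 and 21 without the eIF3a-bound, the eIF3c-bound and the eIF2β-bound library, against 9.03%, 10.9% and 8.69% of all.

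Coding length moved with the fold. Among the 55 tested members of the shortest class, 261 to 966 nt, 8 were called higher (14.5%) and 2 lower (3.64%), with a median log2 fold of 0.35. All tested regions of that class had 26.4% called higher and 2.31% lower, with a median of 0.40. Among the 61 of the longest class, 1764 to 4638 nt, 4 were called higher (6.56%) and 14 lower (23.0%), with a median of -0.42. All tested regions of that class had 4.77% called higher and 24.7% lower, with a median of -0.44. The other 808 genes had 24.5% higher and 0.971% lower in the shortest class, and 1.59% and 46.0% in the longest. In the middle class 3.85% of the chosen genes were called higher and 14.1% lower. The other genes of that class had 5.19% and 15.2%, and all tested regions 11.8% and 8.40%. PUT3 and UBP1, with 2940 and 2430 nt, rose although they are long. The part of length in single calls was not tested. The 200 coding regions had a median length of 1368 nt, against 955.5 nt in the other 808 genes.

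**Figure D4:**
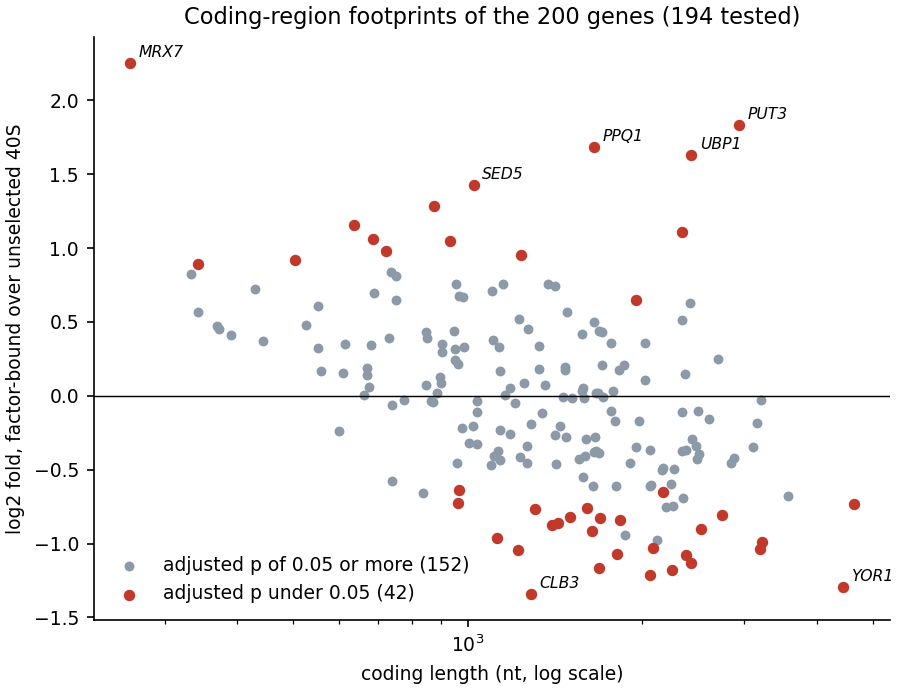
Each point is 1 of the 194 chosen genes whose coding region was tested, with coding length in nt on a log x axis and the log2 fold of coding-region counts in factor-bound over unselected 40S, relative to the median gene, on the y axis. Red points had an edgeR adjusted p under 0.05 (15 higher and 27 lower), and the median fold goes from 0.35 in the shortest class to -0.42 in the longest.

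Leader length could be set beside the ratio for the genes with a cap site in the authors' deposited list, which covers 190 genes with distances from cap to start codon of 80 nt or more. It held 41 of the 200 and 109 of the other genes past the minimums. Their median distance was 180 nt (87 to 395) among the chosen and 103 nt (80 to 520) among the others. The chosen share climbed with distance, from 4 of 55 genes (7.27%) under 100 nt, through 10 of 50 (20%) from 100 to under 150 nt, to 27 of 45 (60%) at 150 nt or more. The median ratio in factor-bound 40S over all genes of these classes was 0.876, 1.76 and 3.40. Across the 150 genes, distance and factor-bound ratio had a Spearman correlation of 0.60, given as a description because a longer leader offers more positions for a footprint.

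Raw leader counts per unit of length were not higher among the chosen genes than among the others, but relative to start-codon counts they were. The amount of mRNA enters the raw counts, so they do not give 40S per mRNA. Unselected leader counts per 100 nt had a median of 235 among the 41 and 291 among the 109, and factor-bound ones 1047 and 1342. Start-codon counts differed more, with medians of 103 and 508 in unselected and 343 and 1310 in factor-bound 40S. Leader counts per 100 nt over start-codon counts had medians of 1.70 and 0.645 in unselected and 2.73 and 1.08 in factor-bound 40S. Among the genes with a known cap site, the chosen ones had both a longer leader and a start codon of few counts. The unselected leader and start-codon counts made the choice, so those values follow in part from it and support nothing.

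Among the 41 chosen genes with a cap site, the longest leaders were those of LCB2 at 395 nt, WHI4 at 364 nt and PTC2 at 322 nt. LCB2, a subunit of the serine palmitoyltransferase that opens sphingolipid synthesis, had ratios of 5.81 in unselected and 18.1 in factor-bound 40S. WHI4 had leader counts of 185, 116 and 150, then 481, 870 and 1180, over 28, 11 and 19, then 40, 33 and 22 start-codon counts. Its ratio was 7.78 and 26.6, the highest in factor-bound 40S among the 41. Length alone did not order the genes. UBC6, a ubiquitin-conjugating enzyme of the endoplasmic reticulum, had 277 nt and a ratio of 2.31, whereas NUP100, a nuclear pore protein, had 120 nt and 22.7. Among the shortest, ALG13, YFH1 and NAM9 had 87, 90 and 94 nt and factor-bound ratios of 3.35, 4.52 and 5.55. The other 33 with a cap site had factor-bound ratios between 2.30 and 12.7.

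**Figure D5:**
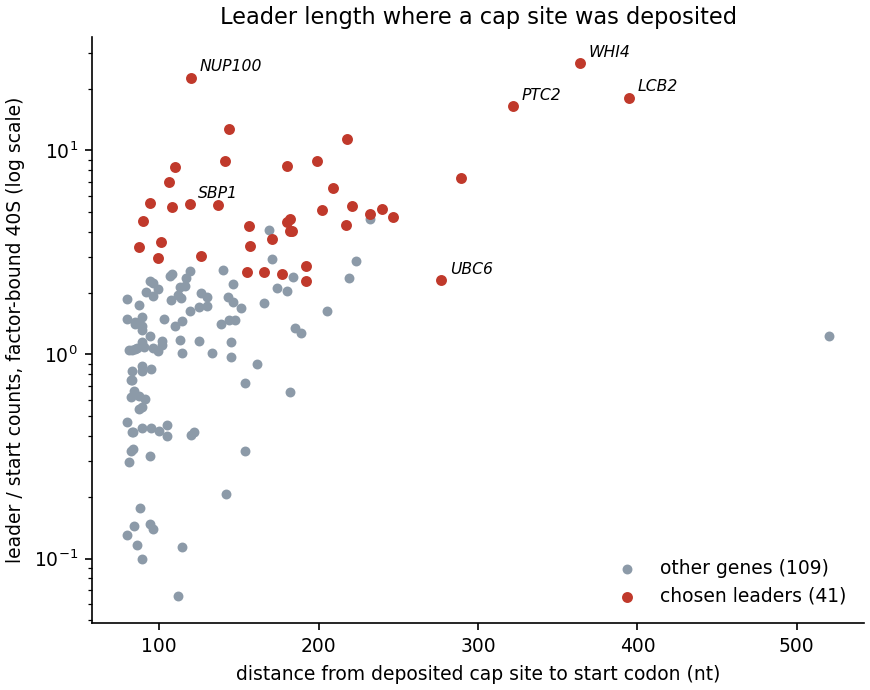
Each point is a gene with a deposited cap site, with the distance from cap to start codon in nt on the x axis and leader over start-codon counts summed over the 3 factor-bound 40S libraries on a log y axis. Chosen leaders (red, 41 genes) have a median distance of 180 nt and the others (grey, 109 genes) of 103 nt, and no chosen leader lies under 87 nt.

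Few upstream neighbours lay near these leaders on the same strand. In RefSeq's table of build R64, a noncoding gene on the same strand lay within 250 nt upstream of the start codon for 0 of the 200 and 3 of the other 808 genes. A coding gene did so for 4 of the 200 (2.00%) and 36 of the 808 (4.46%). The 4 were PHD1, NSG2, YGR026W and YER079W. The gap to the upstream neighbour on either strand had a median of 564.5 nt among the 200 and 522 nt among the others, and an upstream neighbour overlapped 2 and 6 of them. GCN4 lies on chromosome V, with its coding region at 138918 to 139763 and a gap of 748 nt to the next gene. MMR1 lies on chromosome XII at 535214 to 536689, with a gap of 820 nt.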

How the data were processed

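The authors deposited, per the file headers, raw footprint counts per gene in 5 areas (the 5′ leader, the 3′ UTR, and the start codon, coding region and stop codon between them) for the 6 libraries of 40S used here, of 16 in the series. The sources used here do not say how footprints were assigned to areas or whether strand and multiple mapping were considered. Build R64 and the tools TopHat2 2.1.0, Bowtie2 2.2.6, Bowtie 1.2.2 and CASAVA 1.8 appear, with no role, in the submitters' processing notes. RNA of 18 to 85 nt was sequenced, per the labels' protocols. Cap sites come from the authors' deposited list. Of 5818 gene IDs, 5776 matched RefSeq's R64 table, all 200 chosen genes included. Positions are 1-based.

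Counts of each area were tested over all genes in R 4.3.3 with limma 3.58.1 and edgeR 4.0.16, by filterByExpr, TMM within the area, the quasi-likelihood test of 3 factor-bound against 3 unselected libraries, and Benjamini-Hochberg adjustment with a threshold of 0.05. The test was tried on simulated counts without pairing by strain and without differences between factors. That trial therefore does not give its error rates in these libraries. Alternatives were DESeq2 1.42.0, no filter, library sizes from all areas, a replicate block, leaving out each library and other minimums for the choice. Ratios, with 0.5 added to each count in single libraries, and Spearman correlations were computed in Python 3.11.15 (pandas 2.3.3, NumPy 2.4.6, SciPy 1.17.1, matplotlib 3.10.9). Intervals are 95% Wilson intervals.

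Nothing states that the libraries came from separate cultures, so a p-value reflects only how far these libraries scatter, which may be technical and in the factor-bound group includes differences between 3 factors. Numbers 1-1, 1-2 and 1-3 mark one tagged strain in both groups, so they pair the samples. Deviations from the group means correlated within a number at 0.42, 0.38 and 0.37 for leaders, 0.59, 0.49 and 0.43 for start codons and 0.31, 0.25 and 0.24 for coding regions.

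The chosen genes, the lists and the tests were set with earlier results of these data known. Named are the 10 highest ratios, the 10 largest factor-bound leader counts, the 10 highest and 10 lowest factor-bound ratios, the 3 genes on each side of the limit, the 10 largest coding-region rises and falls with groups that do not overlap, genes with a cap site and list members. From long groups only examples are printed. Planned features of the leader sequence were not analysed here.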

Additional observations from a re-analysis of the deposited data

How the results depend on the processing

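The choice of minimums moved the ratio more than the choice of libraries. The median factor-bound ratio of the 200 leaders, 5.40, was 6.79 with minimums of 30 and 15 counts and 3.73 with 120 and 60, where 127 genes were shared with the choice described. The number chosen stayed at 200, while the other genes numbered 1240 and 472 instead of 808. The 200 were thus a smaller share of the genes with the lower minimums and a larger share with the higher ones. Leaving out 1 library gave 4.58 to 5.95. The leader share of the 200 in factor-bound 40S was 86.7%, and 85.0% without GCN4, an alternative chosen after seeing the data. Calls depended on scaling. With library sizes from all areas, 197 leaders, 89 start codons and 4 coding regions were called higher and 112 coding regions lower, against 73.5%, 23.1%, 3.67% and 50.6% of all tested. With the replicate block, which uses the pairing by tagged strain, 15 leaders, 61 start codons and 28 coding regions were called higher and 8 start codons lower, against 0, 7, 15 and 0 without it. Over all features the block called 1.57%, 12.6%, 19.9% and 16.2%. It ended none of the 42 coding-region calls. Without the filter on low counts 1 leader was called higher (0.063% of all), and DESeq2 called 11 start codons higher (2.04% of all). Leaving out 1 library gave 0 to 2 start codons higher, and 10 to 19 coding regions higher and 13 to 30 lower. Apart from these, the alternatives left each count of calls within 1.5 times the value given. Where counts moved, the cause was not tested. Chosen genes have few start-codon and coding-region counts.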
